A study of Mus musculus with 13 samples.

Results

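The variable genes of the T cell receptor alpha and beta chains were described in mouse Th17 cells, the helper T cells that make interleukin 17. Members were all genes of the deposited count table whose symbol starts with Trav or Trbv and that had at least 1 count in any of 6 RNA-seq libraries, whichever way they moved. This gave 137 genes, 111 of the 128 Trav genes and 26 of the 35 Trbv genes in the table, out of 56941 genes in all.

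The study compared cells labelled Chaf1bfl/fl;Il17fCre+ (KO, 3 libraries) with cells labelled Chaf1bWT (WT, 3 libraries). Chaf1b encodes a subunit of the chromatin assembly factor CAF-1, which deposits histones on newly made DNA. Both groups were naive CD4+ T cells of the spleen, cultured for 72 h under conditions that polarize Th17 cells. In the KO mice the Cre recombinase that removes the floxed Chaf1b sequence is driven by Il17f, a gene of cells already becoming Th17 cells, and the WT label does not say whether Cre was present. The labels call the libraries biological replicates without saying that each came from its own animal, so a p-value here speaks of the spread among these libraries, which may be technical.

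Each T cell builds its receptor during development in the thymus by joining 1 variable gene to joining segments, with a diversity segment as well in the beta chain, upstream of a constant gene. The assembled variable gene is then the one from which that cell makes its chain, so in RNA from many cells the share of reads on each variable gene reads out how often it was used, weighted by how much receptor RNA each cell made. Rearrangement is over before a naive T cell reaches the spleen. Mouse Trav genes lie at the receptor alpha locus, interspersed with genes of the delta chain, and many exist as near-identical copies from duplications of a stretch of that locus, marked by a letter d or n in the symbol.

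Chaf1b itself was counted 572, 567 and 498 times in the libraries labelled KO, against 541, 438 and 525 times in WT. That is 14.9 ± 1.38 CPM in KO and 12.0 ± 0.99 CPM in WT, where CPM are counts scaled to a common library size (SD, n = 3 each). The log2 fold change was 0.31 ± 0.11 (SE) and the adjusted p 0.130. Every adjusted p below comes from the quasi-likelihood test of edgeR, adjusted by Benjamini-Hochberg over all tested genes, unless another is named. All exons are summed and the sources used here do not name the deleted ones, so the count cannot check the genotype, and the libraries are called KO as labelled. Total counts ran from 35708879 to 45232055 per library. Of 14681 genes that passed the filter on low counts, 576 (3.92%) had higher and 362 (2.47%) had lower values in KO at an adjusted p under 0.05, and the median log2 fold change was -0.01.

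The summed beta variable genes were lower in the libraries labelled KO while the beta constant genes were not. Trbv genes together had 196, 192 and 189 CPM in the KO libraries, against 235, 210 and 218 CPM in WT. All 3 KO libraries lay below all 3 WT libraries. The means were 192 ± 3.59 and 221 ± 12.7 CPM (SD, n = 3 each), a log2 ratio of -0.20, which as a sum over the members was given no test. Trbc1 and Trbc2, the 2 constant genes of the beta chain, were at 225 ± 4.60 and 313 ± 6.61 CPM in KO libraries, against 222 ± 10.03 and 306 ± 4.50 CPM in WT. Their log2 fold changes were 0.02 ± 0.05 (adjusted p = 0.880) and 0.03 ± 0.04 (adjusted p = 0.728). For every 100 counts on the beta constant genes there were 35.9, 35.8 and 35.7 counts on Trbv genes in the KO libraries and 43.2, 40.6 and 41.8 in WT. The KO values lay within a narrow span, below every WT value. For a sum in RNA from many cells, fewer cells of a kind and less RNA per cell cannot be told apart. The source of the difference in the ratio of variable to constant counts was not tested.

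The alpha chain did not have that pattern. Trav genes together had 64.9, 66.0 and 65.9 CPM in the KO libraries, against 70.8, 65.6 and 62.0 CPM in WT, and the WT range enclosed the KO values. The means were 65.6 ± 0.62 and 66.1 ± 4.44 CPM (SD, n = 3 each), a log2 ratio of -0.01. Trac, the alpha constant gene, was at 181 ± 7.92 CPM in KO libraries and 193 ± 10.1 CPM in WT (log2 fold change -0.09 ± 0.05, adjusted p = 0.388). Per 100 counts on Trac there were 37.0, 34.7 and 37.1 Trav counts in KO libraries and 34.7, 34.6 and 33.5 in WT, so that this ratio lay higher in KO without overlap, by a narrow margin between KO replicate 2 and WT replicate 1. There were 3.03, 2.90 and 2.87 Trbv counts for each Trav count in KO libraries, against 3.32, 3.21 and 3.52 in WT. The groups did not overlap in this ratio.

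**Figure D1:**
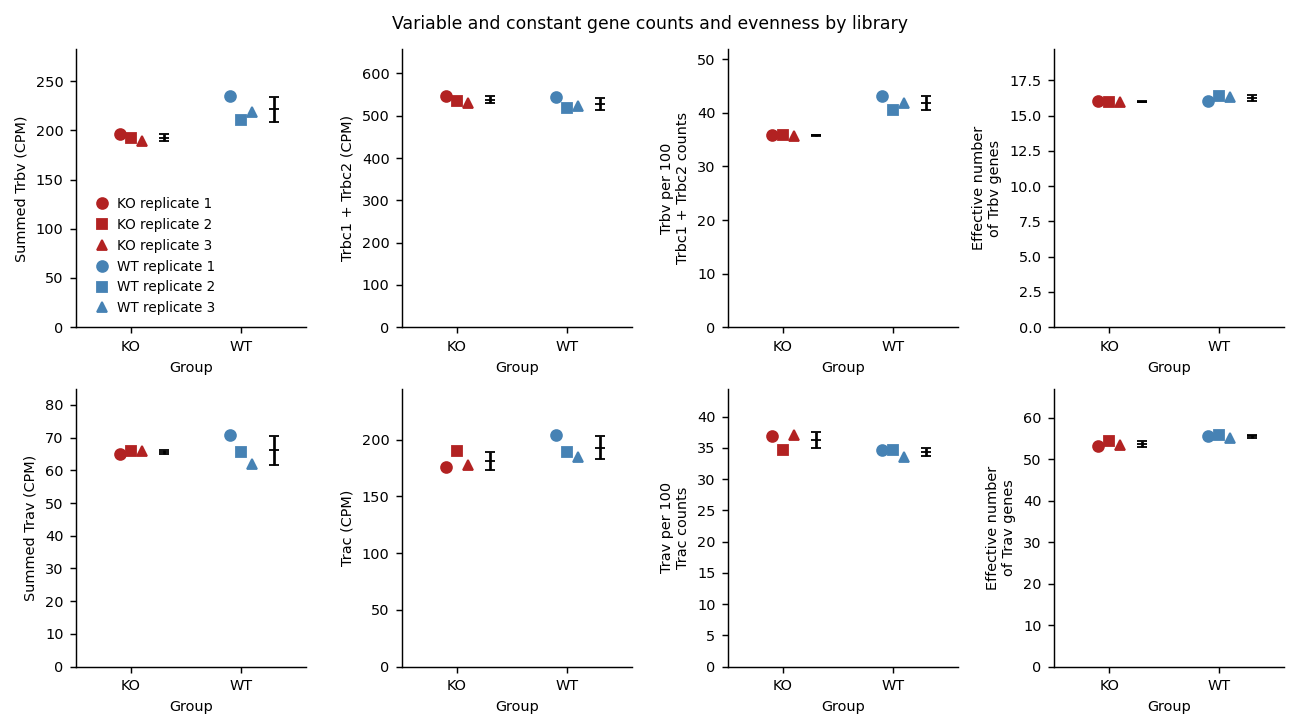
Summed variable genes, constant genes, their ratio and the effective number of variable genes in the 3 KO (red) and 3 WT (blue) libraries, for the beta chain (top) and the alpha chain (bottom). Points are libraries, bars beside them are the mean ± SD. Trbv per 100 Trbc1 and Trbc2 counts lie between 35.7 and 35.9 in KO and between 40.6 and 43.2 in WT, while the summed Trav values overlap.

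Usage of the Trbv genes was given as each gene's share of the Trbv counts of a library, which sets aside the difference in the sum. The sources used here give no exon lengths, so shares are of counts and not of molecules, and a longer exon adds to a gene's share alike in both groups. Trbv13-2 led with 11.9%, 12.3% and 12.9% of the Trbv counts in the KO libraries, against 12.5%, 11.5% and 10.8% in WT. Trbv1, the gene at the start of the locus, followed with 11.0% in every KO library, against 10.7%, 11.2% and 10.6% in WT. Both had overlapping groups. Trbv31, which lies in inverted orientation beyond the constant genes and so joins by inversion, held 8.24%, 9.00% and 9.21% in KO libraries and 8.95%, 8.66% and 8.71% in WT, again overlapping.

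Of the next genes, Trbv3 had 8.84% ± 0.36 of the Trbv counts in KO and 8.68% ± 0.24 in WT libraries (SD, n = 3 each). Trbv13-1 had 8.56% ± 0.32 in KO and 8.16% ± 0.64 in WT, Trbv19 had 6.03% ± 0.20 in KO and 5.97% ± 0.42 in WT, and Trbv2 had 5.32% ± 0.45 in KO and 5.39% ± 0.11 in WT. None of these 4 shares separated the groups. Trbv16 (5.23% ± 0.65 in KO, 6.15% ± 0.30 in WT) and Trbv15 (5.08% ± 0.31 in KO, 5.51% ± 0.43 in WT) had lower mean shares in KO with overlapping libraries. The 5 genes with the highest shares in each library held 49.6% ± 1.13 of the Trbv counts in KO and 48.0% ± 0.89 in WT. At the low end, Trbv4, Trbv5 and Trbv21 each held less than 0.28% in any library, and Trbv22, Trbv12-3 and Trbv9, which RefSeq classes as pseudogenes, had 6 counts or fewer in every library.

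Shares did not overlap between the groups for 2 of the 26 Trbv genes, Trbv29 and Trbv12-2, in opposite directions; in CPM, 26.8% of all tested genes did not overlap. Trbv29 was counted 270, 277 and 297 times in the KO libraries, against 433, 392 and 503 times in WT. Its share of the Trbv counts was 3.92%, 3.78% and 4.26% in KO and 4.49%, 4.86% and 5.06% in WT. Every KO library lay below every WT library on both measures. Trbv12-2 held 5.79%, 6.37% and 5.44% of the Trbv counts in KO, against 4.49%, 4.25% and 5.35% in WT, so that KO replicate 3 lay just above WT replicate 3. Together with Trbv12-1 and Trbv12-3, the members of its subgroup, it made up 9.69%, 9.39% and 9.21% in KO and 6.83%, 7.26% and 8.55% in WT. Trbv12-1 alone had 3.56% ± 0.47 in KO and 2.83% ± 0.47 in WT, with overlapping libraries.

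**Figure D2:**
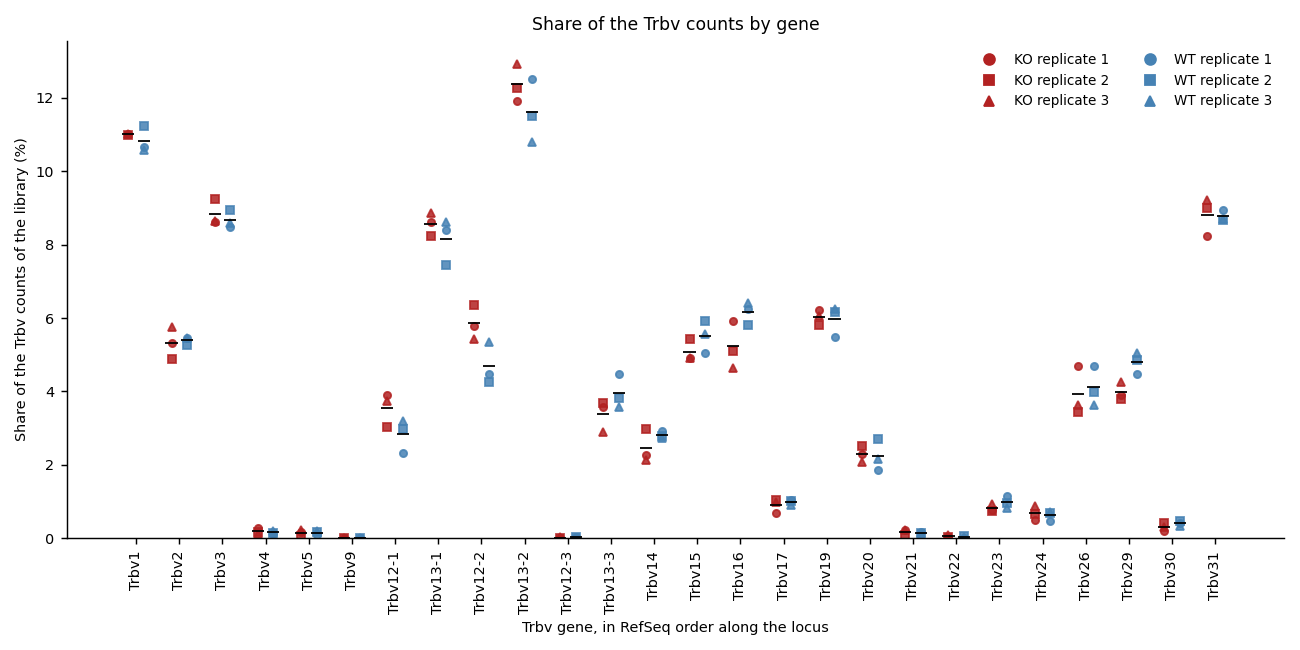
Share of the Trbv counts of each library (%) for the 26 Trbv genes with at least 1 count, in RefSeq order along the locus. KO libraries are red and left, WT libraries blue and right, black lines are group means. The order of the genes is alike in all 6 libraries, with Trbv13-2 and Trbv1 highest, and the groups separate at Trbv29 (3.99% in KO, 4.80% in WT) and Trbv12-2 (5.86% in KO, 4.69% in WT).

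In the test over all genes, 1 of 23 Trbv genes that passed the filter was lower in KO libraries and none higher, where 2.47% of all tested genes were lower. The called gene was Trbv29, at 7.67 ± 0.40 CPM in KO and 10.6 ± 0.42 CPM in WT (SD, n = 3 each; log2 fold change -0.47 ± 0.11, 95% interval -0.71 to -0.23, adjusted p = 0.0293). RefSeq's GRCm38.p6 table classes Trbv29 as a pseudogene, although its counts here place it among the moderately used genes. The call was lost when the Trbv genes were scaled to their own sum (-0.27 ± 0.11, adjusted p = 0.200). It was also lost when any of KO replicates 1, 2 and 3 and WT replicates 2 and 3 was left out (adjusted p = 0.126, 0.145, 0.0879, 0.0908 and 0.0626 in that order), with log2 fold changes from -0.51 to -0.43.

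Trbv16 and Trbv15 came next by p. Trbv16 was counted 409, 374 and 324 times in KO libraries and 602, 470 and 637 times in WT (10.1 ± 1.44 CPM in KO, 13.6 ± 1.25 CPM in WT, log2 fold change -0.44 ± 0.13, adjusted p = 0.0680). Trbv15 was at 9.78 ± 0.59 CPM in KO and 12.2 ± 0.28 CPM in WT (-0.31 ± 0.10, adjusted p = 0.101). On the CPM scale the groups of both genes did not overlap. Neither passed; both passed without WT replicate 1 (adjusted p = 0.0253 for Trbv16 and 0.0409 for Trbv15), and Trbv16 also by DESeq2 (adjusted p = 0.0324). The largest fitted changes that did not pass were those of Trbv30 (-0.60 ± 0.38), Trbv23 (-0.46 ± 0.24), Trbv16, Trbv13-3 (-0.43 ± 0.16) and Trbv14 (-0.40 ± 0.16), with adjusted p from 0.0680 to 0.406.

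Over the 23 tested Trbv genes the median log2 fold change was -0.20, beside -0.01 over all tested genes. Of these, 19 had a fitted value below 0, which held for 51.3% of all genes, and 11 had KO libraries entirely below the WT libraries in CPM, against 12.4% of all genes, with none entirely above, against 14.4% of all genes. An unadjusted p under 0.05 was reached by 6 of the 23, and by 21.1% of all genes. Scaled to the Trbv sum instead, 11 of the 23 were below 0 and 12 above, with a median of 0.01. None of the 23 passed on this scale, where 6.38% of all genes did, and the lowest adjusted p was 0.156, that of Trbv12-2 (0.32 ± 0.12). The direction of Trbv1, Trbv3, Trbv13-1, Trbv13-2, Trbv19, Trbv20, Trbv24 and Trbv31 turned with this scaling: their values lay between -0.20 and -0.04 on the library scale and between 0.01 and 0.15 on the Trbv scale. The scaling takes the difference in the Trbv sum out of every gene alike, so this balance follows from the centring.

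**Figure D3:**
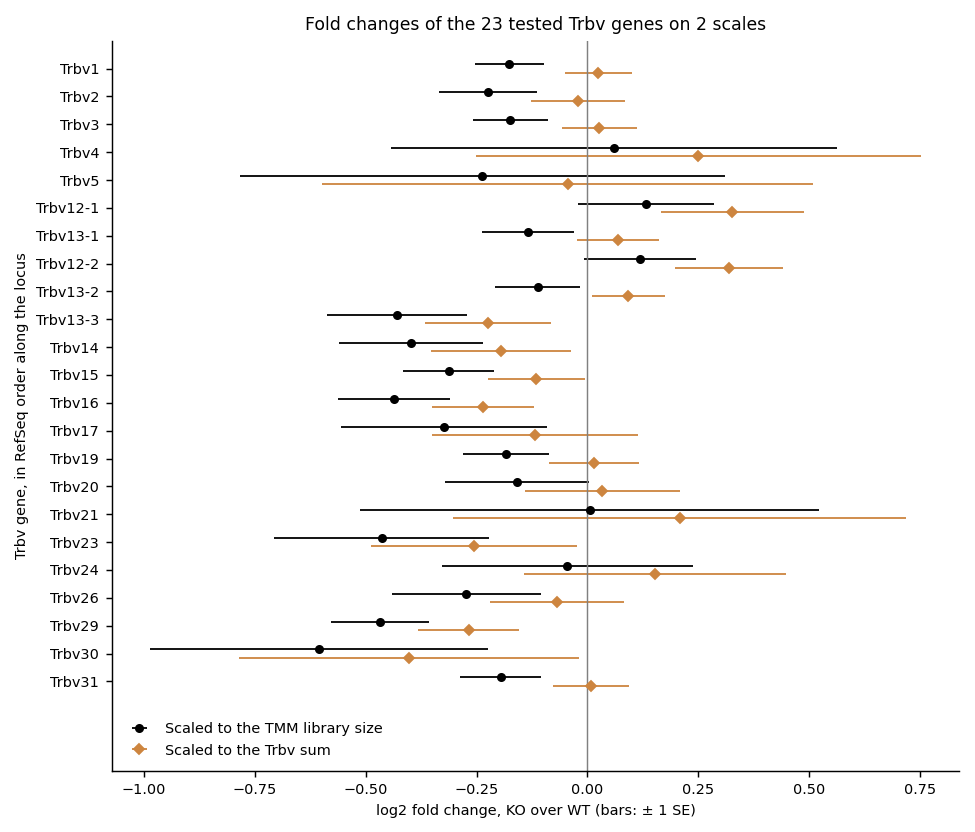
Log2 fold change of KO over WT libraries for the 23 tested Trbv genes in RefSeq order, scaled to the library size (black circles) and to the Trbv sum (orange diamonds), with bars of ± 1 SE. On the library scale 19 of 23 lie below 0, and on the Trbv scale 11 lie below and 12 above.

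The Trav genes were each counted less often than the main Trbv genes. In CPM, KO libraries lay entirely above WT for 3 of the 59 tested Trav genes and entirely below for 4. Over all tested genes 26.8% did not overlap, so a separation alone marks no gene out. Trav13-4-dv7, a variable gene that both the alpha and the delta chain can use, had the highest mean share, with 5.79%, 7.22% and 6.27% of the Trav counts in KO libraries, against 5.61%, 5.16% and 5.70% in WT. Every KO library was above every WT library in share, KO replicate 1 narrowly, and its CPM overlapped (4.22 ± 0.51 in KO, 3.63 ± 0.30 in WT; log2 fold change 0.22 ± 0.17, adjusted p = 0.512). The second gene, Trav15-2-dv6-2, which also serves both chains, was counted 128, 131 and 121 times in KO libraries, against 83, 74 and 115 times in WT. That was 5.62%, 5.20% and 4.99% of the Trav counts in KO and 2.86%, 2.94% and 4.07% in WT, without overlap. Its log2 fold change was 0.67 ± 0.19 with an adjusted p of 0.0607, which moved past the threshold without WT replicate 1 (adjusted p = 0.0452) or WT replicate 3 (adjusted p = 0.0402). Summed with its d and n copies it held 5.70%, 5.20% and 5.07% in KO and 3.58%, 4.13% and 4.32% in WT. That gap was narrower, as the n copy Trav15n-2 was lower in KO (2, 0 and 2 counts in KO, 21, 30 and 4 in WT).

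Trav14-3 and its 2 copies moved in different directions. Trav14-3 was counted 82, 96 and 97 times in KO libraries, against 66, 76 and 71 in WT. Its d copy, Trav14d-3-dv8, was counted 48, 72 and 76 times in KO libraries, against 129, 105 and 110 in WT, and its n copy, Trav14n-3, 52, 63 and 54 times in KO, against 98, 99 and 115 in WT. As shares of the Trav counts none of the 3 overlapped between groups, where 26.8% of all tested genes did not overlap in CPM. Trav14-3 was higher in KO (3.80% ± 0.20 in KO, 2.60% ± 0.38 in WT) and both copies were lower. Their log2 fold changes were 0.54 ± 0.21 (adjusted p = 0.160), -0.64 ± 0.23 (adjusted p = 0.128) and -0.70 ± 0.20 (adjusted p = 0.0685, and 0.0387 without WT replicate 1), so none passed. Summed, the 3 held 7.99%, 9.17% and 9.36% of the Trav counts in KO libraries and 10.1%, 11.1% and 10.5% in WT. Reads that match more than 1 place were not counted under the commands recorded for all libraries but KO replicate 1, whose command is printed without its option names, so each near-identical copy shows only the reads that tell it apart.

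The other Trav genes among the 10 with the highest shares overlapped between groups. Trav7-4 had 3.92% ± 0.59 of the Trav counts in KO and 3.42% ± 0.37 in WT, Trav14-2 had 3.36% ± 0.78 in KO and 3.03% ± 0.27 in WT, and Trav7-5 had 2.72% ± 0.35 in KO and 2.43% ± 0.20 in WT. Trav4-4-dv10 had 2.68% ± 0.82 in KO and 3.45% ± 1.15 in WT, and Trav13-1 had 2.47% ± 0.19 in KO and 2.79% ± 0.20 in WT. Their adjusted p-values lay between 0.556 and 0.801. Trav21-dv12, which lies near the joining segments, had 2.72% ± 0.30 in KO and 2.25% ± 0.14 in WT without overlap in share, and a log2 fold change of 0.26 ± 0.23 (adjusted p = 0.584).

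**Figure D4:**
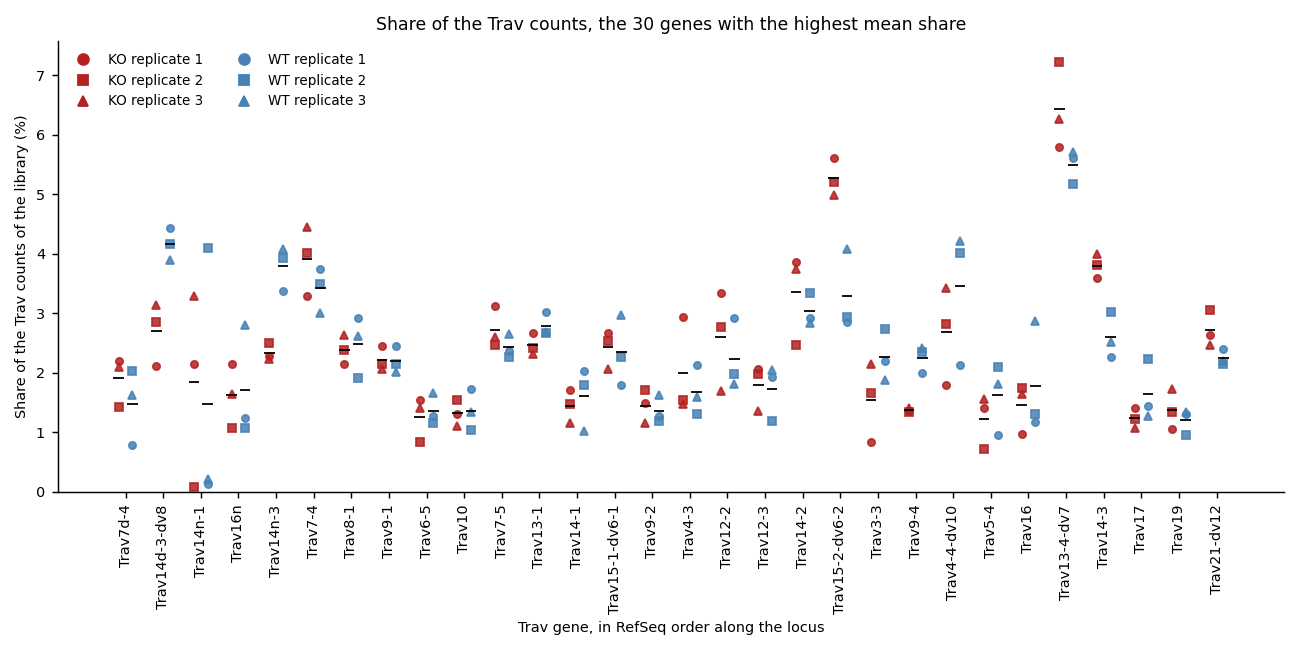
Share of the Trav counts of each library (%) for the 30 Trav genes with the highest mean share, in RefSeq order along the locus, with KO libraries red and left, WT libraries blue and right and black lines at the group means. Trav15-2-dv6-2 (5.27% in KO, 3.29% in WT) and Trav14-3 (3.80% in KO, 2.60% in WT) lie higher in KO, while Trav14d-3-dv8 (2.70% in KO, 4.17% in WT) and Trav14n-3 (2.34% in KO, 3.79% in WT) lie lower.

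Across the Trav genes no call was made. Of 111 members, 59 passed the filter on low counts, and 0 of the 59 passed an adjusted p under 0.05 by edgeR or by DESeq2, beside 6.39% of all genes by edgeR. An unadjusted p under 0.05 was reached by 5 of them (Trav14-3, Trav14d-3-dv8, Trav14n-3, Trav15-2-dv6-2 and Trav9-4), against 21.1% of all genes. The median log2 fold change was 0.07, with 34 values above 0 and 25 below. KO libraries lay entirely above WT in CPM for 3 of the 59, and entirely below for 4, against 14.4% and 12.4% of all genes. The 5 largest fitted changes were those of Trav8-2 (1.13 ± 0.58), Trav7n-4 (-1.12 ± 0.53), Trav7d-3 (0.95 ± 0.55), Trav7-1 (0.88 ± 0.57) and Trav9-4 (-0.72 ± 0.26), with adjusted p from 0.132 to 0.419.

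Trav9-4 was the best measured of these, with 31, 34 and 34 counts in KO libraries, against 58, 59 and 68 in WT, and no overlap. The others rested on at most 34 counts in a library. For Trav genes under 1 CPM the 95% interval of the log2 fold change reached a median of 1.01 to either side. It reached 0.56 for Trav genes from 1 to 5 CPM and 0.24 for the 13 Trbv genes between 5 and 20 CPM. Differences of less than about that size lay within the median interval, which also includes the spread between libraries. A call after adjustment needed more: Trav14n-3, at -0.70 (95% interval -1.15 to -0.26), did not pass. The median coefficient of variation between libraries that edgeR fitted was 29.9% for Trav genes and 30.8% for all genes under 1 CPM. From 1 to 5 CPM it was 18.4% and 18.7%, and from 5 to 20 CPM 9.62% for Trbv genes and 10.7% for all genes. The fit draws each gene's value toward that of all genes at its level, so this closeness is partly built in. Genes that did not pass the filter, among them Trav6n-7 and Trav4n-4, are not part of these medians.

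Evenness of usage was expressed as the effective number, the number of equally used genes that would give the same Shannon entropy. For Trbv it was 16.02, 15.98 and 15.99 in KO libraries and 16.04, 16.41 and 16.31 in WT, a difference of -0.26, with every KO value below every WT value, WT replicate 1 narrowly. For Trav it was 53.1, 54.4 and 53.4 in KO libraries and 55.7, 55.9 and 55.1 in WT, a difference of -1.91, and the groups did not overlap. Pielou's evenness of the Trav genes, the entropy relative to the number of genes counted, went the other way without overlap, with 0.892, 0.895 and 0.891 in KO and 0.883, 0.877 and 0.882 in WT. For the Trbv genes the groups overlapped in Pielou's evenness (0.865 ± 0.0068 in KO, 0.874 ± 0.0047 in WT), so their separation depended on the measure. No test was run on these scores. The Trav difference shrank to -0.75 among genes with at least 10 counts in every library, with overlapping groups, and turned to 0.33 when each gene was summed with its d and n copies. Usage was spread over many genes of small share, with 16 genes making up 50% of the Trav counts in 5 of the libraries and 17 in WT replicate 1.

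The KO libraries held counts on fewer Trav genes, 86, 87 and 87 against 95, 98 and 94 in WT. Brought to a common depth of 2279 Trav counts, the expected numbers were 86.0, 86.4 and 86.6 in KO and 92.8, 97.0 and 92.3 in WT, without overlap. By contrast, Trbv genes counted were 24, 25 and 25 in KO and 24, 25 and 24 in WT. Of the Trav members, 13 had no count in any KO library and 1 none in any WT library, yet none of these exceeded 4 counts where it was counted. Between 65.6% and 67.7% of counts from 1 to 20 were even, as happens where the 2 mates of a fragment each add a count, so that such low counts may rest on still fewer fragments.

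Grouped by copy, the original Trav genes took 75.7%, 76.3% and 75.7% of the Trav counts in KO libraries, against 72.1%, 70.4% and 73.3% in WT. The d copies took 11.2%, 12.0% and 11.7% in KO and 12.3%, 13.3% and 12.6% in WT, and the n copies 13.1%, 11.7% and 12.6% in KO and 15.6%, 16.3% and 14.1% in WT. In all 3 classes the groups did not overlap, with the originals higher and both copy classes lower in KO. The 3 shares add up to the whole, so they are not separate results. Trav14d-3-dv8 alone held 2.70% ± 0.53 in KO and 4.17% ± 0.27 in WT, a larger difference than that of its class (-1.08). The other d copies together were therefore not lower in KO in the mean. Trav14n-3 held 2.34% ± 0.14 in KO and 3.79% ± 0.37 in WT, beside a difference of -2.91 for the n class. By place in the locus, the first 37 members in RefSeq order held 14.8% ± 0.37 in KO and 13.4% ± 0.35 in WT, the middle 37 held 22.8% ± 0.75 in KO and 26.8% ± 2.10 in WT, and the last 37, nearest the joining segments, 62.4% ± 0.46 in KO and 59.8% ± 2.34 in WT. The groups separated in the first and the middle stretch and overlapped in the last. The middle stretch holds all the n copies and Trav14d-3-dv8, and the first holds most of the d copies. Place and copy class therefore share many genes and are not separate results. They did not move alike throughout, as the first stretch was higher in KO while the d class was lower. The 10 Trav genes that also serve the delta chain held 22.3%, 25.5% and 24.2% in KO and 20.8%, 21.9% and 24.7% in WT, with overlap.

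Some Trav genes were high in single libraries. A gap rule set after the values were seen, at least 20 counts in a library and a gap of at least 4-fold in CPM between neighbouring libraries, was met by 7 of 61 Trav genes with that many counts and by none of 22 Trbv genes. Of the 7, 6 carried a d or n letter, as did 20 of the 61. Trav14n-1 was counted 49, 2 and 80 times in KO libraries and 4, 103 and 6 times in WT. Trav6n-7 had 118 counts in WT replicate 1 and between 3 and 10 in the other libraries, Trav4n-4 had 62 in KO replicate 2 and at most 7 elsewhere, and Trav7n-6 had 42 in WT replicate 3 and at most 4 elsewhere. High values of these 4 genes occurred in 1 or 3 libraries and did not follow the labels. Trav6d-3 and Trav8-2 met the rule through 1 low library each, with 2 counts in WT replicate 1 for Trav6d-3 and 2 counts in WT replicate 2 for Trav8-2. Trav8-2 was above WT in CPM in every KO library. Trav15n-2 lay the other way, with 2, 0 and 2 counts in KO libraries and 21, 30 and 4 in WT, without overlap. It did not pass the filter on low counts; without that filter its log2 fold change was -3.53 ± 0.88 (adjusted p = 0.00205), and Trav4n-4 passed as well (2.22 ± 0.64, adjusted p = 0.0129) on the strength of 1 library.

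**Figure D5:**
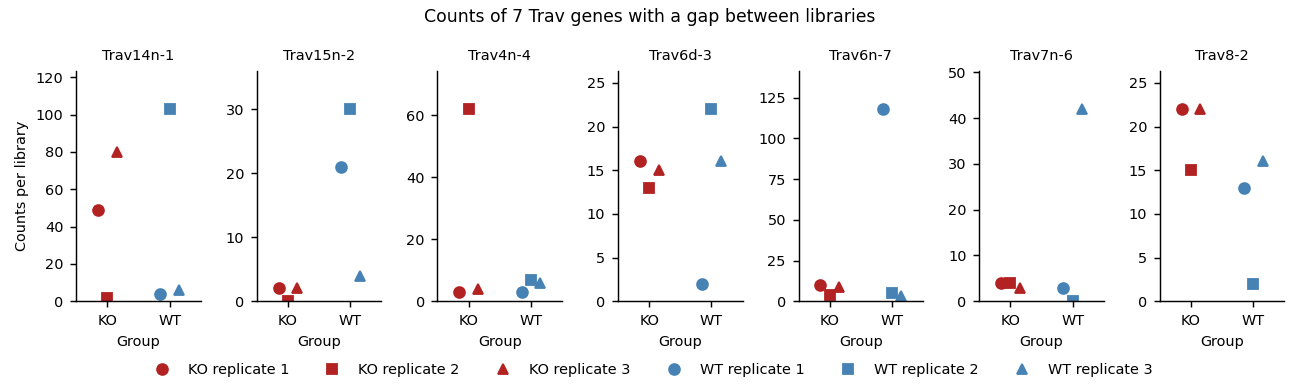
Counts per library of the 7 Trav genes that met the gap rule, with KO libraries red and left and WT libraries blue and right in each panel, each on its own axis from 0. High counts sit in 1 library for Trav4n-4, Trav6n-7 and Trav7n-6, in KO replicates 1 and 3 and WT replicate 2 for Trav14n-1, and in WT replicates 1 and 2 for Trav15n-2.

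Libraries were also compared in pairs by the usage difference, the percentage of counts that would have to be moved to another gene to make 2 libraries alike. For Trbv it was between 4.18% and 4.78% among KO libraries, between 4.07% and 6.20% between KO and WT libraries, and between 3.73% and 4.90% among WT libraries. For Trav it was 15.6% to 18.2% among KO libraries, 17.5% to 23.8% between KO and WT, and 18.4% to 19.4% among WT. In both families the KO-WT pairs reached higher than pairs within a group and also began within or below the range of those pairs. There were 9 KO-WT pairs and 3 pairs within each group, and a larger number of pairs can reach higher by number alone. The median for Trbv was 5.06% between KO and WT, 4.67% among KO and 4.86% among WT. For Trav the medians were 19.1%, 15.9% and 19.4% in that order.

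Genes that mark invariant T cells were few among the counts. Trav1, the alpha variable gene of mucosal-associated invariant T cells, was counted 6, 28 and 28 times in KO libraries and 36, 14 and 4 times in WT, with wide overlap (log2 fold change 0.34 ± 0.73, adjusted p = 0.841). Trav11, the alpha variable gene of natural killer T cells, had 0, 4 and 0 counts in KO and 2, 0 and 0 in WT, and its copy Trav11d had 0 in each KO library and 0, 0 and 4 in WT, which is at or near the limit of 3 counts that a count of 0 allows in a library.

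The genes around the variable genes were alike in part. Calls were made among the folding factors and the delta and gamma genes, and none in the joining, CD3 and recombination lists. None of 14 tested beta joining segments passed (median log2 fold change -0.03), nor did the beta diversity segment Trbd1 (0.29 ± 0.26, adjusted p = 0.584). Of the CD3 chains, which carry the receptor to the surface and signal for it, 0 of 4 passed. Cd3e was at 74.6 ± 3.16 CPM in KO and 78.2 ± 6.86 CPM in WT. Cd247, the zeta chain, was at 128 ± 4.93 CPM in KO and 111 ± 9.43 CPM in WT (0.20 ± 0.06, adjusted p = 0.100). Cd3g was at 78.1 ± 5.83 CPM in KO and 63.6 ± 8.09 CPM in WT (0.30 ± 0.09, adjusted p = 0.0780). Both Cd247 and Cd3g were higher in KO without overlap, as were 14.4% of all genes. Of the endoplasmic reticulum factors that help new receptor chains fold, Calr (0.24 ± 0.04, adjusted p = 0.00592) and Pdia3 (0.19 ± 0.05, adjusted p = 0.0313) were higher in KO libraries. These were 2 of 4 tested in a list that also held Cd3e, where 3.92% of all genes were called higher. Calr no longer passed without KO replicate 1 (adjusted p = 0.0553), nor Pdia3 without any 1 of the 3 KO replicates or WT replicate 2 (adjusted p between 0.107 and 0.188). Of 8 genes of recombination and the pre-receptor, 0 of 4 tested passed, and Rag2 and Ptcra had no count in any library.

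Some markers of Th17 cells and of other cells differed between the groups, and their part in the results above was not tested. The summed markers of CD8 T cells, natural killer T cells, mucosal-associated invariant T cells, plasma cells and immature thymocytes overlapped. The delta constant gene Trdc was at 65.7 ± 2.35 CPM in KO libraries and 41.1 ± 6.29 CPM in WT (log2 fold change 0.67 ± 0.10, adjusted p = 0.00257), and Trdv1, a delta variable gene, at 4.01 ± 0.30 CPM in KO and 2.43 ± 0.30 CPM in WT (0.72 ± 0.18, adjusted p = 0.0381, and between 0.0973 and 0.165 without any 1 of the 3 KO replicates or WT replicate 2). The 6 gamma delta T cell markers summed to between 95.9 and 101 CPM in KO libraries and between 51.0 and 63.0 CPM in WT, with 4 of 6 tested called higher, where 3.92% of all genes were. The 4 were receptor constant genes (Trdc and the 3 gamma constant genes of the list), while Sox13 (-0.38 ± 0.47, adjusted p = 0.704) and the kinase gene Blk (-1.85 ± 0.73, adjusted p = 0.174) had negative values. Cd4 was at 225 ± 9.38 CPM in KO libraries and 290 ± 45.3 CPM in WT (-0.36 ± 0.09, adjusted p = 0.0504), while the CD8 T cell markers Cd8a and Cd8b1 summed to between 12.4 and 16.6 CPM in KO and between 14.1 and 16.0 CPM in WT. Il17a, the defining Th17 cytokine, was at 8.97 ± 0.79 CPM in KO libraries and 66.4 ± 32.6 CPM in WT (-2.89 ± 0.39, adjusted p = 0.0181). WT replicate 1 held the highest WT value for Il17a and the summed Trbv genes, and also for summed Trav, Trac and Cd4. WT replicates 2 and 3 ranked in opposite order, with Il17a at 52.3 and 43.1 CPM and summed Trbv at 210 and 218 CPM. Of the 4 NK markers, Ncr1 and Klrb1c had no count in any library, Klre1 had a log2 fold change of -1.44 ± 0.62 (adjusted p = 0.205), and Eomes, a transcription factor gene that activated T cells also use, was higher in KO (0.90 ± 0.17, adjusted p = 0.0107); their sum was between 4.48 and 5.49 CPM in KO and between 2.74 and 4.04 CPM in WT. The 5 myeloid markers summed to between 6.04 and 7.15 CPM in KO libraries and between 1.56 and 2.28 CPM in WT, with Fcer1g higher (2.46 ± 0.28, adjusted p = 0.000449) and Csf1r at 2 counts or fewer in KO and 3 or fewer in WT. The 4 dendritic cell markers summed to between 182 and 187 CPM in KO and between 128 and 135 CPM in WT, mostly through Cd74 (0.52 ± 0.05, adjusted p = 9.4e-05), while Flt3 had 9 counts or fewer in every library.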

How the data were processed

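RNA-seq of 6 of the series' 13 samples was used; the other 7 were not analysed here. Raw counts for each gene were deposited, which the authors made with featureCounts 2.0.1 on GENCODE vM33 exons, per the file headers. The commands of 5 libraries set neither strand nor counting of multi-mapping reads, and that of KO replicate 1 is printed without option names; antisense neighbours therefore cannot be told apart. In the record of units kept here 5 columns are entered as counts and the deposited column of WT replicate 2 as other; it holds raw counts like the rest. Neither aligner version nor genome build is given in the sources used here.

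Symbols were matched to 51948 of 56941 IDs (91.2%); all 137 members were found in the RefSeq GRCm38.p6 table, which was used for gene class and order only. edgeR 4.0.16 (R 4.3.3) was fitted across all genes of the 6 libraries (default filter with a minimum count of 10, TMM, robust quasi-likelihood test, group as the only term, Benjamini-Hochberg adjustment over 14681 genes, threshold 0.05), after a check on simulated counts. CPM use TMM library sizes. In the usage scaling, Trav and Trbv genes were offset by their own family sum. DESeq2 1.42.0 was an alternative. The 95% intervals are those of the fit and include the spread between libraries; the floor of 3 counts covers counting error only. Subgroups are the first number of the symbol, and genes serving both chains are those whose symbol holds dv.

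Genes named were those called, the 10 of each family with the highest mean share, the 5 with the largest change that did not pass, a fixed set (Trac, Trbc1, Trbc2, Trav1, Trav11, Trav11d, Trbv1, Trbv13-2, Trbv29, Trbv31, Trav21-dv12) and leading genes of related lists. Trbv12-1, the lowest Trbv genes, Trav14n-1 and the other genes of the gap rule, and the sums of the Trav14-3 and Trav15-2 copies, were picked once their values were known. The members and lists were chosen with earlier results of these data known.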

Additional observations from a re-analysis of the deposited data

How the results depend on the processing

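The threshold was passed by 938 genes of all tested, 1 of 23 Trbv genes and 0 of 59 Trav genes. With no filter on low counts the numbers were 1568, 2 and 2, and with no filter and usage scaling together, an alternative chosen after seeing the data, 1567, 0 and 2. Usage scaling alone left 0 Trbv genes, and DESeq2 called 2. Leaving out 1 library gave between 295 (without KO replicate 1) and 2961 genes (without WT replicate 1), between 0 and 3 Trbv genes, and between 0 and 2 Trav genes; the cause was not tested. The Trbv total is at its highest without WT replicate 1 and the Trav total without WT replicate 1 or 3. With the replicate block 671 genes and 0 Trbv genes passed; Trbv29 (adjusted p = 0.0575), Pdia3 (0.0668) and Trdv1 (0.0783) then missed the threshold. Same-numbered libraries did not deviate together (correlations of -0.04, -0.04 and 0.03), and no library correlated best with its own number. These correlations cannot tell whether same-numbered samples were prepared together.

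The Trav effective number differed by -1.91, by -0.75 with at least 10 counts in every library, by 0.33 with copies summed, and by -2.29 to -1.65 when 1 library was left out. The log2 ratio of the summed Trbv CPM lay between -0.24 and -0.16 over the alternatives, and that of the summed Trav CPM between -0.06 and 0.04. A length correction of evenness was not run, since no exon length is given in the sources used here. Depth limits the Trav genes most: at under 1 CPM, differences of less than about 1.01 on the log2 scale lay within the median 95% interval.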

Other observations

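Variable genes of receptors that alpha beta T cells do not use were counted as well. The immunoglobulin kappa variable genes summed to 7, 6 and 5 counts in the libraries labelled KO, against 23, 14 and 26 counts in WT, without overlap, and the heavy chain variable genes to 24, 12 and 12 counts in KO and 23, 15 and 24 in WT, with overlap. Summed B cell markers were higher in KO libraries, at between 99.1 and 105 CPM, against 70.2 to 83.4 CPM in WT, mostly through Ighm (84.97 ± 2.38 CPM in KO, 54.2 ± 7.94 CPM in WT), while Ebf1 was lower (-0.66 ± 0.12, adjusted p = 0.0100 by edgeR's quasi-likelihood test). Gamma variable genes summed to 3.25, 3.30 and 2.71 CPM in KO libraries and 1.66, 1.43 and 2.48 CPM in WT, without overlap. Of 60 alpha joining segments, 50 were counted and none passed the filter on low counts, with 94, 67 and 77 counts over all of them in KO libraries and 99, 100 and 107 in WT.

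Trav23, which RefSeq classes as a pseudogene, had 0, 0 and 1 counts in KO libraries and 5, 6 and 7 in WT, without overlap. It was too low to be tested, and it was picked after its values were seen.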
